A study of Mus musculus with 3 samples.

Results

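The genes described here are 9 members of the transforming growth factor beta (TGF-beta) pathway: the ligand genes Tgfb1, Tgfb2 and Tgfb3, the receptor genes Tgfbr1, Tgfbr2 and Tgfbr3, the latent binding protein genes Ltbp1 and Ltbp2, and the matrix gene Tgfbi. They were taken by symbol, and all 9 were found among the 32285 gene rows of single-cell RNA sequencing matrices from mouse fracture callus. The callus came from female C3H/HeJ mice, a strain described as healing fractures slowly, that were 9 weeks old and had a pinned fracture of the femoral midshaft. Tissue was taken on day 7, marrow was avoided, and cells were freed with collagenase and captured in droplets for 3′ end sequencing, in which each transcript molecule is counted once by its identifier (UMI). The 3 groups received vehicle, parathyroid hormone (PTH, an N-terminal fragment) at 100 µg/kg, or YKL-05-099 (YKL in what follows) at 15 mg/kg, each once a day under the skin. The last is a small-molecule inhibitor of the salt-inducible kinases, which lie downstream of the PTH receptor. Fracture, pin, strain, sex and age were shared by the 3 groups. Each group was 1 library, from a number of mice not given in the sources used here. No difference between libraries therefore has a replicate check, no test was run, and every interval below is a 95% interval that covers counting error only.

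TGF-beta is made as a latent complex, in which the ligand stays bound to its propeptide and the propeptide is tied to a latent TGF-beta binding protein in the matrix. Once released, the ligand binds the type II receptor, which recruits and activates the type I receptor, and Smad proteins carry the signal to the nucleus. In growing and healing cartilage the pathway is known for promoting early chondrocyte formation and for restraining hypertrophy, and bone matrix is a large store of latent ligand.

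Filtering kept 2893 control, 1908 PTH and 600 YKL cells. Their median depths were 11677, 12284 and 25686 UMIs, so that the YKL library was the deepest per cell and the smallest. Of the kept cells, 1490 control, 679 PTH and 372 YKL cells were chondrocyte-like. In all 3 libraries the chondrocyte-like cells held the defining cartilage genes, with Col2a1 between 32049 and 36465 CPM (UMIs of a gene scaled to the summed UMIs of the cells). Some cells rich in Col2a1 lay in clusters that were left unnamed, and are outside this class. A cluster with markers of several classes (Col2a1 at 38472 CPM) held 8 control, 29 PTH and 43 YKL cells. A cluster high in haemoglobin (22890 CPM) held 129, 20 and 11 cells, and a cluster led by cell cycle genes (32137 CPM) 32, 17 and 2. The part of this uneven selection in the ratios below was not tested. Osteoblast-like cells were led by Ibsp, Alpl and Spp1, while the defining osteocalcin gene Bglap stood at only 6.67 CPM in control, 10.7 CPM in PTH and 85.3 CPM in YKL cells of the class. Tendon-like cells were nearly all from the PTH library (231 cells, against 2 in control and 2 in YKL), so their level is that of 1 library. Among kept cells, 1 barcode was shared by the control and PTH libraries and 0 by the other pairs.

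The ligand genes lie apart in the genome (mouse build GRCm38). Tgfb1, the main ligand of immune cells and platelets, is at chr7:25687002-25705077 on the plus strand. Tgfb2, a ligand with wide roles in skeletal and heart development, is at chr1:186622792-186705989 on the minus strand. Tgfb3, a ligand known for palate fusion and cartilage formation, is at chr12:86056745-86079041 on the minus strand and overlaps Ttll5 on the other strand, so that reads of the pair cannot be told apart where strand was not used in counting. Tgfb2 and Ltbp2 likewise overlap antisense transcripts. Tgfbr1, the type I receptor kinase, is at chr4:47353222-47414931 on the plus strand, and Tgfbr2, the type II kinase that binds ligand first, is at chr9:116084293-116175360 on the minus strand. Tgfbr3, the coreceptor betaglycan, which presents Tgfb2 in particular to the type II receptor, is at chr5:107106570-107289629 on the minus strand. Ltbp1, which ties latent ligand to fibrillin fibres, is at chr17:75005568-75392512 on the plus strand. Ltbp2, a relative that is a structural protein of microfibrils and does not bind latent TGF-beta, is at chr12:84783212-84876532 on the minus strand. Tgfbi, a secreted adhesion protein named for its induction by TGF-beta, is at chr13:56609523-56639562 on the plus strand.

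Promoters are given for 5 members that differed between libraries, over all chondrocyte-like cells or, for Tgfb2, within states, and Ltbp2, whose ratios rest on few UMIs, is left out. They are shown because PTH and the salt-inducible kinases act on factors of the cAMP response element, and any such element, or an AP-1 site, is in capitals. Each is the stretch before a RefSeq start (GRCm38.p6, up to 250 bases, with annotated exon bases left out), 5′ to 3′ on the strand of the gene. RefSeq entries were found for 7 of the 9 members, and Tgfb3 and Tgfbr3 had none. The windows are chr7:25686752-25687001 for Tgfb1, chr1:186705990-186706239 for Tgfb2, chr9:116175364-116175613 for Tgfbr2, chr17:75005279-75005528 for Ltbp1 and chr13:56609336-56609522 for Tgfbi.
Tgfb1: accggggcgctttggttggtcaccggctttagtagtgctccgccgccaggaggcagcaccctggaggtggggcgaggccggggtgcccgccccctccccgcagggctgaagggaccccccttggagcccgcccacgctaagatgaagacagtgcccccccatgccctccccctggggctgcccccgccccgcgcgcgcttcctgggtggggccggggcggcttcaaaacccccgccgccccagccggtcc
Tgfb2: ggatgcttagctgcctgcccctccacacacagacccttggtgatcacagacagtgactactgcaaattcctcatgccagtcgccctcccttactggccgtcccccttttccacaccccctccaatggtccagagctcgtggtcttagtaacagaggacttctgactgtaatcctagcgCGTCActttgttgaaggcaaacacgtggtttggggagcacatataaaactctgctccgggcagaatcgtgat
Tgfbr2: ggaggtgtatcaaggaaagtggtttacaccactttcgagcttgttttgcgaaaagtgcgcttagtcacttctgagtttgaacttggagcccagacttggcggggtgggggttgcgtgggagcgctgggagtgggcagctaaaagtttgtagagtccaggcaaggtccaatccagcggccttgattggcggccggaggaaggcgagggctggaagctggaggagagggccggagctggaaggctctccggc
Ltbp1: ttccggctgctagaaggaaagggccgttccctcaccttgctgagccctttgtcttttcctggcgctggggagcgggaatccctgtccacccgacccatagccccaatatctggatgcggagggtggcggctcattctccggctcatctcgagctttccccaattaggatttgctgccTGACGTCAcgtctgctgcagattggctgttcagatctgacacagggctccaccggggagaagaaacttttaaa
Tgfbi: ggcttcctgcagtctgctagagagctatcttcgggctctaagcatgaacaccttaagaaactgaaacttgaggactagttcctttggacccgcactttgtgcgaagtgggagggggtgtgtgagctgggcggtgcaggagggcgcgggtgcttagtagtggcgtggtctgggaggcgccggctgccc
Ltbp1 held the full palindrome TGACGTCA, which begins 73 bases before its start and which 1.55% of 32851 promoter windows of 250 bases hold on either strand. The window of its other RefSeq start, chr17:75178531-75178780, held neither form of the element. Tgfb2 held the short form of the element, TGACG or its complement CGTCA, 72 bases before its start, as do 17.8% of windows (the full palindrome contains the short form on both strands). None of the 5 windows held the AP-1 site TGANTCA (6.75% of windows) or the Smad palindrome GTCTAGAC (0.167% of windows). The short Smad element CAGAC, or its complement GTCTG, was in the windows of Tgfb2, Tgfbr2, Ltbp1 and Tgfbi, and 42.2% of all windows hold it. The Tgfb1 window held 5 copies of the GC box GGGCGG on either strand and the Tgfbi window 1, and 32.7% of windows hold the box. These matches describe the letters of the windows and are not measured binding.

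The 9 genes were spread over the callus in different ways. The following levels are CPM of UMIs summed over the cells of a class in a library, and levels are compared between classes and not between genes. Classes are named by markers, are called "-like" for that reason, and enter with at least 20 cells in a library.

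**Figure D1:**
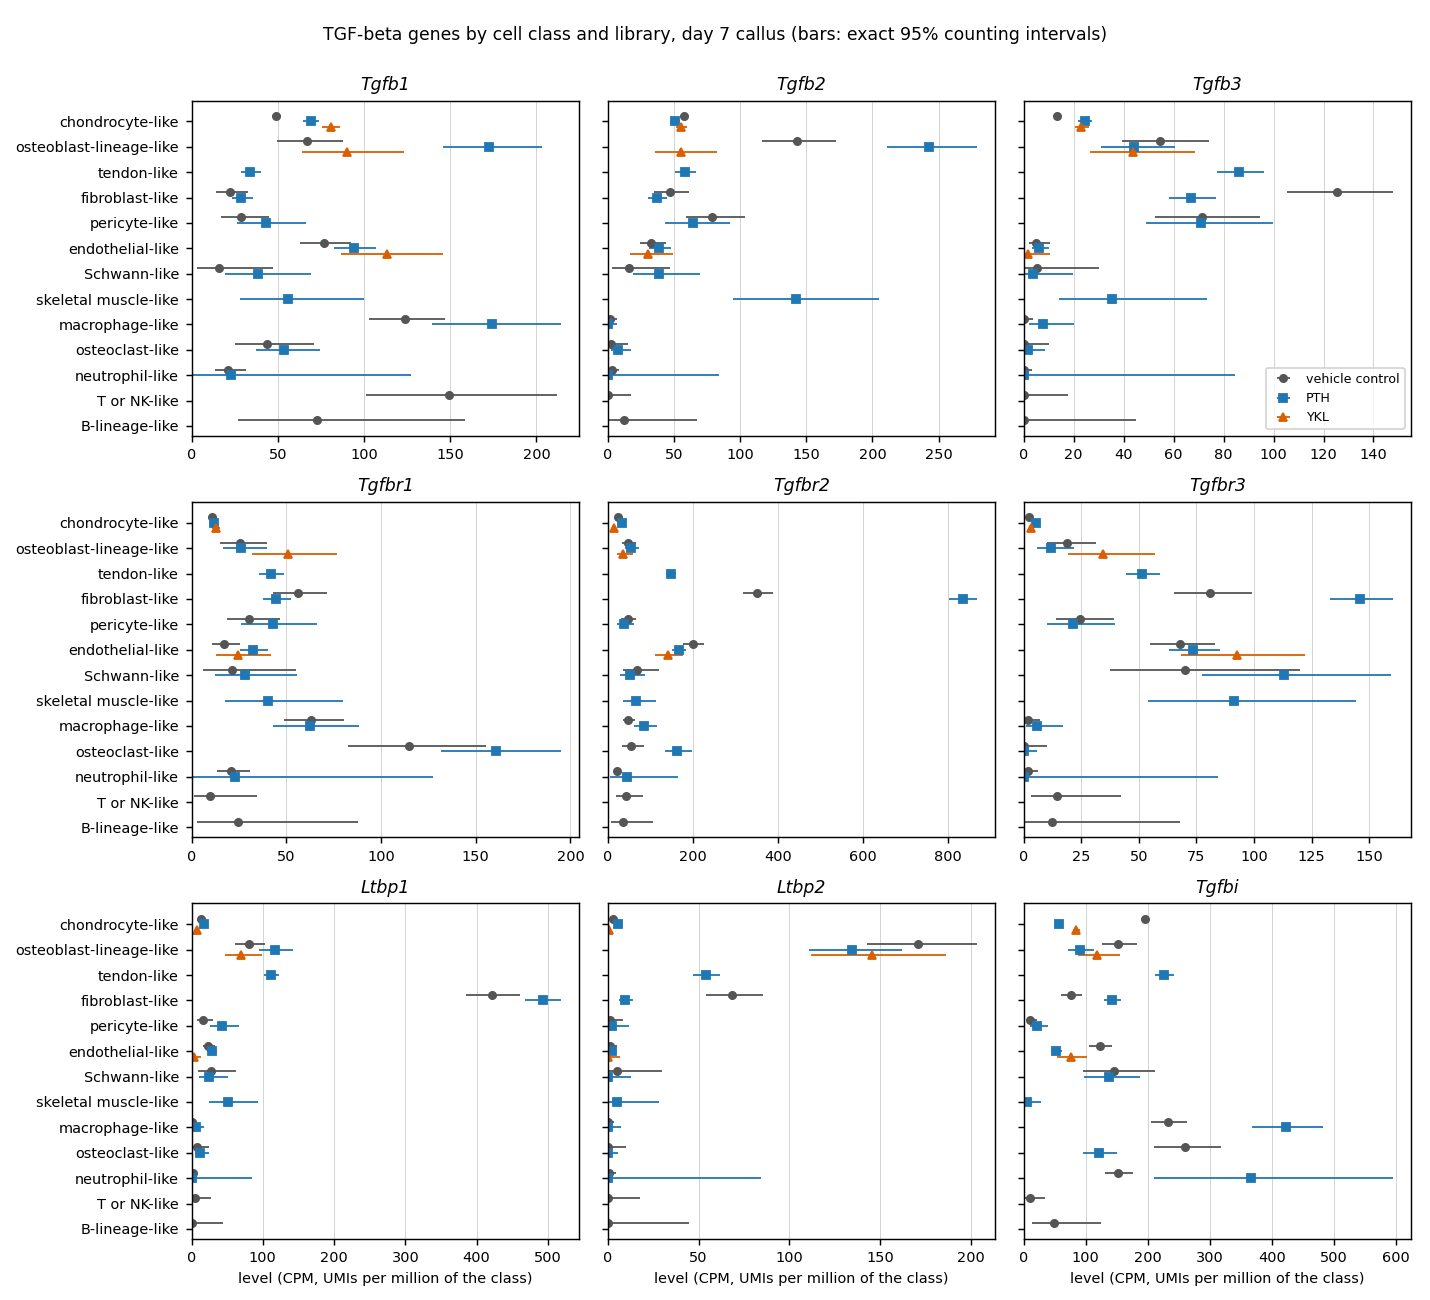
Level of each of the 9 genes in each cell class (CPM, linear axis), with 1 point per library that has at least 20 cells of the class, and bars for the exact Poisson 95% interval. Tgfbr2 and Ltbp1 stand highest in fibroblast-like cells, Ltbp2 in osteoblast-like cells, and Tgfbi in macrophage-like cells of PTH and, within the control, in osteoclast-like cells. Unnamed classes are not drawn.

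Among the ligands, Tgfb1 had its highest means over libraries in T or NK-like and macrophage-like cells. It stood at 149 CPM (101 to 212) in T or NK-like cells of the control library, and in macrophage-like cells at 124 CPM in control and 174 CPM in PTH. Osteoblast-like cells of PTH were as high, at 173 CPM. Chondrocyte-like cells were the 6th of 13 classes for Tgfb1, and the ranges of all neighbouring classes in that order overlapped. Tgfb2 had a different distribution, being near or at 0 in macrophage-like and T or NK-like cells. It was found at 0 UMIs in T or NK-like cells and at 1.92 CPM in control macrophage-like cells. Its highest levels in control and PTH were in osteoblast-like cells, with 143 and 243 CPM, followed in PTH by skeletal muscle-like cells at 142 CPM. In YKL, osteoblast-like cells had 55.4 CPM of Tgfb2 and chondrocyte-like cells 55.6 CPM. The 17 fibroblast-like cells of YKL, under the minimum of cells, had 67.6 CPM. Tgfb3 was a gene of connective tissue cells, at 125 CPM in control and 67.1 CPM in PTH fibroblast-like cells. Tendon-like cells had 86.3 CPM of Tgfb3 in PTH, and pericyte-like cells had 71.3 and 70.9 CPM in the control and PTH libraries. Neutrophil-like, T or NK-like and B-lineage-like cells had 0 UMIs of Tgfb3.

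The receptor genes were low in chondrocyte-like cells, which came 12th for Tgfbr1, 13th for Tgfbr2 and 11th for Tgfbr3 of the 13 classes. Tgfbr1 was highest in osteoclast-like cells, with 115 CPM (82.8 to 155) in control and 161 CPM (132 to 195) in PTH, against no more than 12.7 CPM in chondrocyte-like cells, the level of the YKL library. Tgfbr2 was highest in fibroblast-like cells, with 352 CPM (318 to 388) in control and 835 CPM (803 to 868) in PTH. The next class, endothelial-like cells, had 201, 167 and 142 CPM of Tgfbr2 in control, PTH and YKL libraries, and its range did not overlap that of fibroblast-like cells. Chondrocyte-like cells had 25.3 CPM in control, 34.8 in PTH and 14.0 in YKL of this gene. Tgfbr3 was at 80.8 and 146 CPM in control and PTH fibroblast-like cells and at 70.1 and 113 CPM in Schwann-like cells. In chondrocyte-like cells Tgfbr3 reached no more than 5.36 CPM, in PTH.

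Both binding protein genes marked mesenchymal classes. Ltbp1 stood at 422 CPM (385 to 462) in control and 493 CPM (468 to 518) in PTH fibroblast-like cells, apart from the next class, tendon-like cells at 112 CPM. Among classes with at least 20 cells, Ltbp2 was highest in osteoblast-like cells of every library, at 171, 135 and 145 CPM in control, PTH and YKL libraries, and the range did not overlap that of tendon-like cells at 54.0 CPM. The 17 fibroblast-like cells of YKL, under that minimum, had 221 CPM. Ltbp2 is among the leading genes of the larger osteoblast-like cluster of the control, a cluster that also carried Col2a1 at 8500 CPM.

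Tgfbi, which can be induced by TGF-beta in many cell types, had its highest mean over libraries in macrophage-like cells, with 233 CPM in control and 422 CPM in PTH. Neutrophil-like cells had 153 CPM in control and 366 CPM (209 to 595) from 16 UMIs in PTH. Within the control the highest level was 292 CPM (259 to 328), in the unnamed class led by cell cycle genes, and its interval overlapped that of osteoclast-like cells. Osteoclast-like cells had 260.0 and 121 CPM in the control and PTH libraries, and tendon-like cells 226 CPM. It was low in pericyte-like cells, at 10.6 and 21.5 CPM, and in T or NK-like cells, at 9.63 CPM from 2 UMIs.

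The chondrocyte-like cells were then clustered again, with the 9 genes left out of the variable genes, and the 11 clusters were read as 6 states from Ucma, Tnmd, Sfrp5, Col10a1 and Mmp13. Ucma marks immature cartilage, Tnmd is a gene of tendon and its attachments, Sfrp5 is a secreted WNT inhibitor, Col10a1 is the collagen of hypertrophic cartilage, and Mmp13 is the collagenase of its last stage. The cuts were 1000 CPM of Ucma, 100 CPM of Tnmd or Sfrp5, 1000 and 5000 CPM of Col10a1 and 500 CPM of Mmp13, chosen with cluster levels in view. The nearest cluster outside the Ucma cut had 709 CPM of it, and the nearest inside had 1240 CPM. Cells of the Tnmd or Sfrp5 state were 19.5% of control, 42.6% of PTH and 1.34% of YKL chondrocyte-like cells. Cells high in both Col10a1 and Mmp13 were 4.36%, 12.1% and 27.2%, and Col10a1-intermediate cells 4.43%, 4.27% and 26.6%. The YKL library had 15 Ucma-high and 5 Tnmd or Sfrp5 cells, too few for a level.

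**Figure D2:**
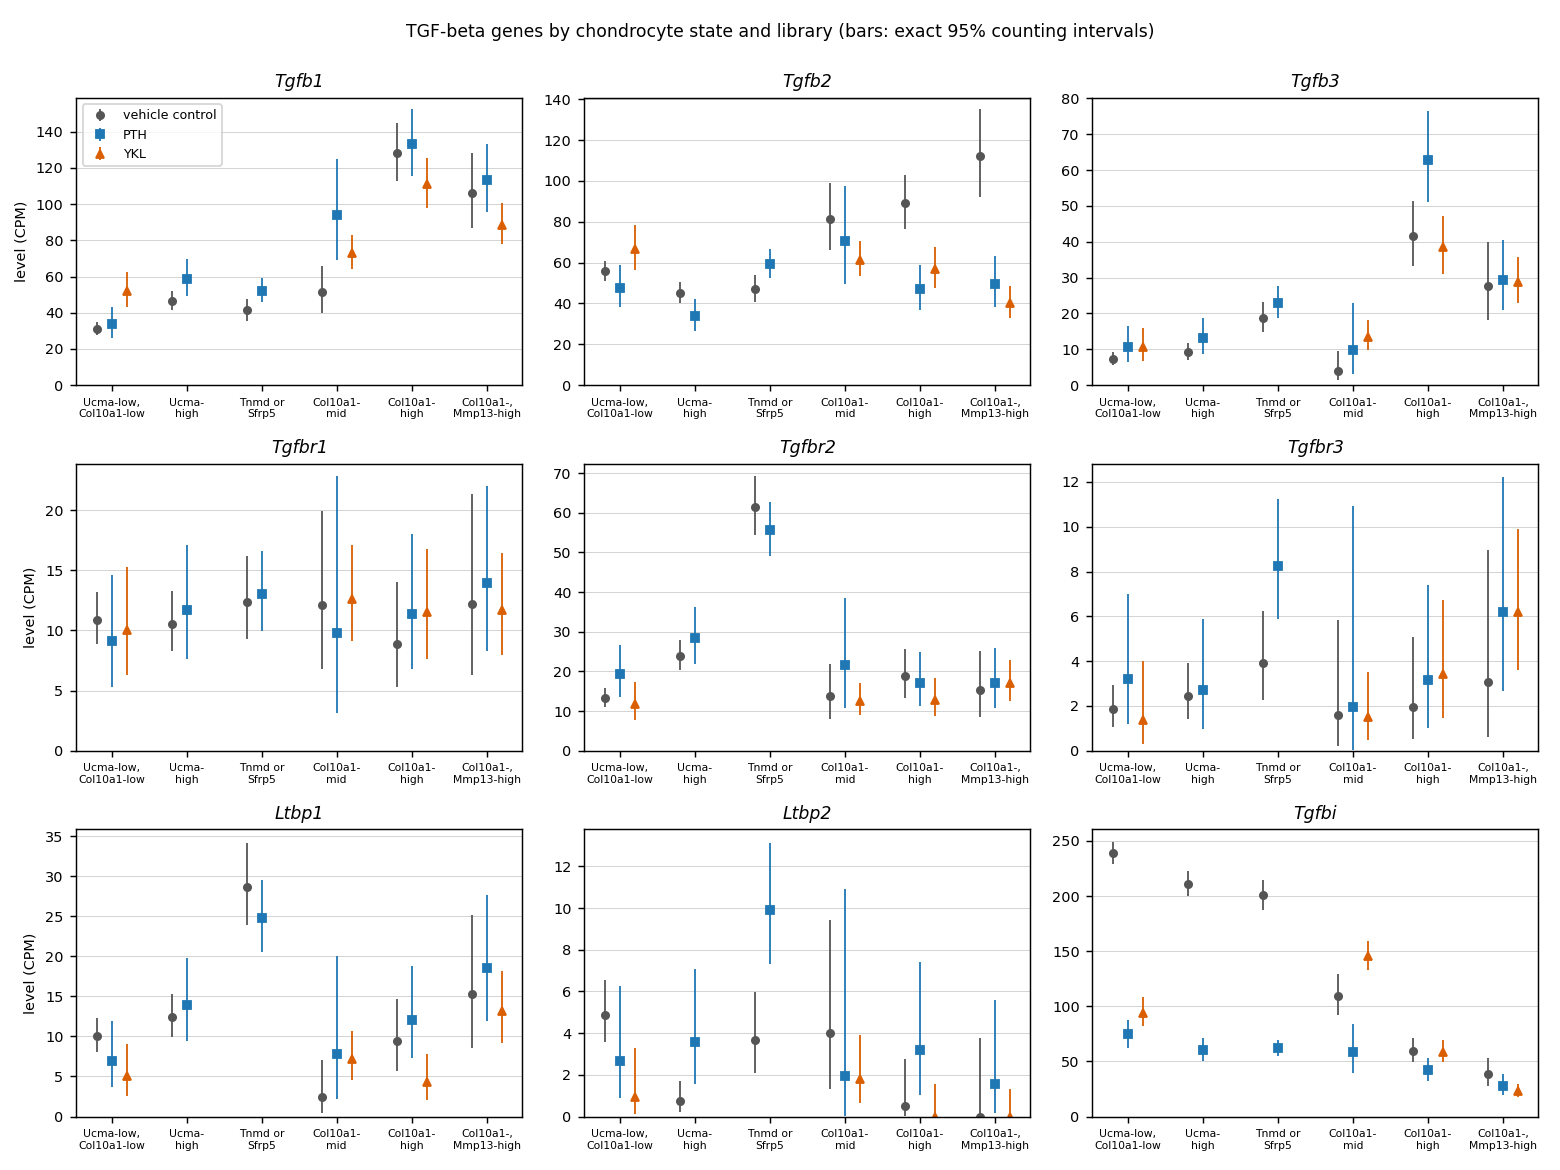
Level of each gene in the 6 chondrocyte states (CPM of UMIs summed over the cells of a state), with 1 point per library and bars for exact Poisson 95% intervals. Tgfb1 and Tgfb3 are highest in the Col10a1-high state, Tgfbr2 and Ltbp1 in the Tnmd or Sfrp5 state, and Tgfbi is lower in the Mmp13-high state than in the Ucma-low state in every library.

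The ligand genes Tgfb1 and Tgfb3 were highest in Col10a1-high cells of every library. Tgfb1 stood there at 128 CPM in control, 133 in PTH and 111 in YKL, against 31.1, 33.7 and 52.2 CPM in cells low in both Ucma and Col10a1. In the control that was a ratio of 4.12 (3.47 to 4.89). Tgfb3 stood at 41.5, 62.7 and 38.5 CPM in Col10a1-high cells and at 7.39, 10.7 and 10.5 CPM in the low cells, a ratio of 5.62 (4.03 to 7.85) in control. The clusters of this state differed, since the larger, with 16107 CPM of Col10a1, had 124 CPM of Tgfb1 and 46.7 CPM of Tgfb3, and a cluster of 44 cells with 38137 CPM of Col10a1 had 72.6 and 14.5 CPM. Between Col10a1-high cells and those high in Mmp13 as well, Tgfb3 was lower again, at 27.5, 29.4 and 28.8 CPM.

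The third ligand gene, Tgfb2, differed between libraries in these late states. In cells high in Col10a1 and Mmp13 it stood at 112 CPM in control, 49.6 CPM in PTH and 40.1 CPM in YKL. The ratios to control were 0.442 (0.319 to 0.607) and 0.357 (0.272 to 0.470). In Col10a1-high cells it was 89.0, 46.9 and 56.9 CPM, with ratios of 0.527 (0.397 to 0.695) and 0.639 (0.507 to 0.805). In cells low in Ucma and Col10a1, it was 55.7, 47.7 and 66.8 CPM, with intervals of the ratios that held 1 (0.675 to 1.07 for PTH and 0.990 to 1.44 for YKL). Col10a1-intermediate cells had ratios of 0.867 (0.575 to 1.28) in PTH and 0.753 (0.591 to 0.966) in YKL. Among early states in PTH, the ratio was 0.745 (0.571 to 0.962) in Ucma-high cells and 1.26 (1.05 to 1.51) in the Tnmd or Sfrp5 state, so its direction was not the same in all states. In the chondrocyte-like cells taken as 1 class, the ratios were 0.882 (0.802 to 0.970) in PTH and 0.966 (0.878 to 1.06) in YKL.

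The receptor gene Tgfbr2 and the binding protein gene Ltbp1 were highest in the Tnmd or Sfrp5 state. Tgfbr2 stood there at 61.5 CPM in control and 55.7 CPM in PTH, against 13.3 and 19.3 CPM in cells low in Ucma and Col10a1. In the control the ratio of these states was 4.64 (3.73 to 5.79). Ltbp1 stood at 28.7 and 24.7 CPM in the Tnmd or Sfrp5 state against 10.00 and 6.96 CPM, a ratio of 2.87 (2.17 to 3.80) in control. Tgfbr1 lay in a narrow range over the states, with 8.90 to 12.4 CPM in control, 9.11 to 13.9 CPM in PTH and 10.1 to 12.6 CPM in YKL. Tgfbr3 and Ltbp2 were too sparse in most states for a comparison, and were at their highest in Tnmd or Sfrp5 cells of the PTH library with 8.25 and 9.90 CPM.

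Tgfbi ran against the hypertrophy genes in control. It stood at 239 CPM in cells low in Ucma and Col10a1, 211 CPM in Ucma-high cells, 201 CPM in the Tnmd or Sfrp5 state and 110 CPM in Col10a1-intermediate cells. Col10a1-high cells had 59.8 CPM, and those high in Mmp13 as well had 38.7 CPM. The Col10a1-high state joined clusters that differed in this gene, with 46.9 CPM in its larger cluster and 377 CPM in a cluster of 44 cells with haemoglobin genes among its leading genes. In the PTH library the same end states had 74.5 and 27.9 CPM of Tgfbi, a narrower span.

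Taken over all chondrocyte-like cells, the libraries differed in Tgfbi, Tgfbr2, Tgfbr3, the binding protein genes and the ligand genes Tgfb1 and Tgfb3. A gene was counted as higher or lower when the ratio of CPM was at least 1.5-fold in that direction, where a gene had 50 UMIs or more in the libraries together. All 9 genes passed that minimum in each of the 3 comparisons. The comparisons with control share the control library, so they are not independent of each other.

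**Figure D3:**
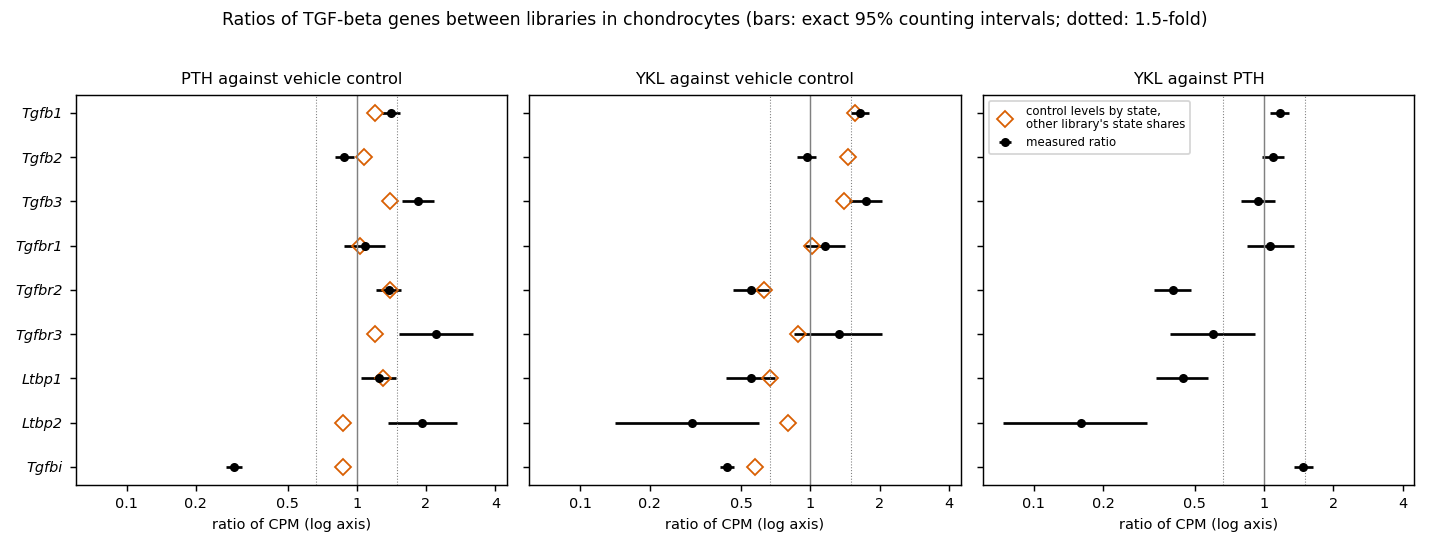
Ratios of CPM in chondrocyte-like cells for the 9 genes (log axis), in 3 panels, 1 per comparison. Black points are measured ratios with exact 95% counting intervals, open diamonds are ratios expected from control levels by state and the other library's state shares, and dotted lines mark 1.5-fold. Tgfbi lies below the lower line against control in both treated libraries, and Tgfbr2, Ltbp1 and Ltbp2 lie below it in YKL against both other libraries.

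In PTH against control, 3 of the 9 genes were at least 1.5-fold higher, where 5.72% of 11353 genes were, and 1 was lower, where 3.18% were. Tgfbi stood at 195 CPM in control and 57.3 CPM in PTH, a ratio of 0.294 (0.271 to 0.318). Tgfb3 stood at 13.3 and 24.5 CPM, a ratio of 1.85 (1.58 to 2.17). That ratio was 1.13 with clusters weighted equally and 2.79 with cells thinned to 2000 UMIs, and within 5 states it lay between 1.07 and 1.51. At 2000 UMIs per cell, Tgfb3 was found in only 43 of 1464 control and 35 of 663 PTH cells, so thinned values rest on few counts. Tgfbr3 stood at 2.43 and 5.36 CPM, a ratio of 2.21 (1.53 to 3.19) that rests on 60 and 66 UMIs. Betaglycan is thus a sparse transcript in these cells. Ltbp2 stood at 2.91 and 5.60 CPM, a ratio of 1.92 (1.36 to 2.71). Its ratio ranged from 0.831 to 3.93 over the alternatives tried, so its direction was not stable. Tgfb1 and Tgfbr2 were higher by less than the fold, with ratios of 1.40 and 1.38, and Tgfb2, Tgfbr1 and Ltbp1 lay between 0.882 and 1.25.

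In YKL against control, 2 genes were at least 1.5-fold higher, where 10.3% of 11306 genes were, and 4 were lower, where 10.2% were. Tgfb1 stood at 49.2 CPM in control and 80.8 CPM in YKL, a ratio of 1.64 (1.51 to 1.79), and Tgfb3 at 13.3 and 23.1 CPM, a ratio of 1.74 (1.47 to 2.05). The type II receptor gene and the binding protein genes were on the lower side. Tgfbr2 stood at 25.3 and 14.0 CPM, a ratio of 0.551 (0.460 to 0.658), and Ltbp1 at 13.8 and 7.60 CPM, a ratio of 0.553 (0.431 to 0.703). Ltbp2 stood at 2.91 and 0.895 CPM, with 10 UMIs in YKL and a ratio of 0.307 (0.141 to 0.598), and this ratio was 1.05 under a finer clustering. Tgfbi stood at 195 and 85.0 CPM, a ratio of 0.435 (0.406 to 0.467). With each cluster of at least 20 cells in both libraries given equal weight, the ratio was 1.04 for Tgfb1, 1.05 for Tgfb3, 0.955 for Tgfbr2, 0.824 for Ltbp1 and 0.779 for Tgfbi, all within 1.5-fold.

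In YKL against PTH, 0 genes were at least 1.5-fold higher, where 7.37% of 10683 genes were, and 4 were lower, where 8.52% were. The ratios were 0.401 (0.332 to 0.483) for Tgfbr2, 0.444 (0.341 to 0.574) for Ltbp1, 0.601 (0.389 to 0.916) for Tgfbr3 and 0.160 (0.0734 to 0.312) for Ltbp2. With clusters weighted equally, the ratios were 0.699 for Tgfbr2, 0.681 for Ltbp1 and 0.816 for Tgfbr3, within the fold, and 0.269 for Ltbp2. Tgfbi was higher in YKL than in PTH by less than the fold, with a ratio of 1.48 (1.34 to 1.64). Of the ligand genes, Tgfb1 had a ratio of 1.17, Tgfb2 of 1.10 and Tgfb3 of 0.942.

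Since the libraries differed in the share of each state, the control levels of the states were also weighted by the UMI shares that the states had in a treated library. For YKL this gave Tgfb1 a ratio to control of 1.56 (1.64 was observed), Tgfbr2 one of 0.629 (0.551 observed) and Ltbp1 one of 0.667 (0.553 observed). For Tgfbi in YKL the ratio from state shares was 0.575, where 0.435 was observed, and for Tgfb2 it was 1.45, where 0.966 was observed. The part of state shares in the ratios was not tested. For PTH the weighted control gave Tgfbr2 a ratio of 1.39 (1.38 observed) and Ltbp1 one of 1.31 (1.25 observed), but Tgfbi one of 0.868, where 0.294 was observed. For Tgfb3 it gave 1.39 in PTH (1.85 observed) and 1.41 in YKL (1.74 observed). Within states, the PTH to control ratio of Tgfbi lay between 0.285 and 0.719 in all 6 states, and 4 of them passed 1.5-fold. In cells high in Col10a1 and Mmp13 its interval held 1 (0.443 to 1.17). The ratio of Tgfb1 lay between 1.04 and 1.82, and 1 of 6 states passed the fold. Its interval held 1 in cells low in Ucma and Col10a1 (0.813 to 1.43). The same was so in Col10a1-high cells (0.863 to 1.25) and those high in Mmp13 as well (0.823 to 1.38). The YKL to control ratio of Tgfbi lay between 0.395 and 1.32 over 4 states, the highest being in Col10a1-intermediate cells, with 145 CPM in YKL and 110 CPM in control. With clusters weighted equally, the PTH to control ratio of Tgfbi was 0.399.

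Other measures of chondrocyte-like cells also differed between libraries, though not all in the order of Tgfbi, which was lowest in PTH. Osteoblast markers summed to 8014 CPM in control, 13251 CPM in PTH and 14042 CPM in YKL cells, so they were higher in both treated libraries. Red cell markers summed to 2708 CPM in control, 367 CPM in PTH and 317 CPM in YKL chondrocyte-like cells, with 0, 1 and 1 of their 7 genes at 0. Neutrophil markers summed to 51.0, 19.7 and 3.49 CPM, and macrophage markers to 18.9, 16.9 and 6.89 CPM, where macrophage-like cells themselves had 36812 CPM in control. In chondrocyte-like cells with at most 1% haemoglobin UMIs, the ratio of Tgfbi to control was 0.293 in PTH and 0.434 in YKL. Median haemoglobin share was 0.141%, 0.0316% and 0.0293% of UMIs, and the part of free red cell RNA was not tested. Median mitochondrial share was 2.15% and 2.18% in control and PTH and 0.875% in YKL, and its part in YKL ratios was not tested.

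The share of cells in which a gene was found was computed with every cell thinned to 2000 UMIs, since median depth was 16464, 17654 and 29115 UMIs in control, PTH and YKL chondrocyte-like cells. Thinning left out 26, 16 and 8 shallower cells. Tgfbi was found in 27.0% of control, 9.65% of PTH and 11.3% of YKL thinned cells, and in 73.8%, 43.0% and 54.3% before thinning. In control T or NK-like cells, with a median depth of 2567.5 UMIs, it was found in 3.17% of thinned cells (2 of 63, 0.387 to 11.002%), an interval below the control share that holds the PTH share and overlaps the YKL interval. Tgfb1 was found in 9.02%, 11.9% and 13.5% of thinned cells and in 44.8%, 56.6% and 76.6% before thinning. Tgfbr2 was found in 4.99%, 6.94% and 1.92% of thinned cells, and in 29.3%, 37.7% and 32.0% before thinning, so its unthinned share in YKL was above the control where its CPM was below. Tgfbr2 in T or NK-like cells was found in 6.35% of thinned cells, a class that expresses the gene itself. Ltbp2 had a UMI in 0 of 364 thinned YKL cells, with an interval that reaches up to 1.01%, and in 2.15% of YKL cells before thinning.

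Outside cartilage, PTH could be compared with control in 5 more classes with at least 50 cells in both libraries. In pericyte-like cells only Tgfb2 (78.8 and 64.5 CPM) and Tgfb3 (71.3 and 70.9 CPM) were measured, with ratios of 0.818 (0.504 to 1.31) and 0.996 (0.618 to 1.59). Endothelial-like cells alone could be compared for YKL as well.

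**Figure D4:**
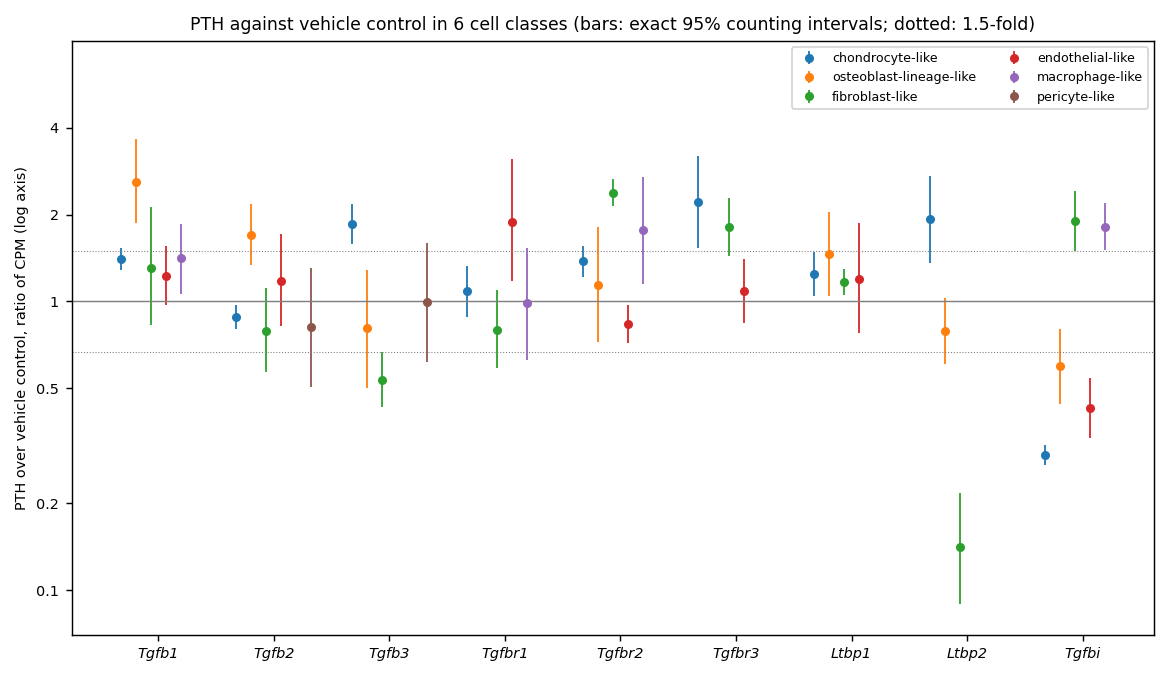
Ratio of CPM in PTH against control for each gene in each class that allowed it (log axis, exact 95% counting intervals, dotted lines at 1.5-fold). Tgfbi lies below 1 in chondrocyte-like, endothelial-like and osteoblast-like cells and above 1 in fibroblast-like and macrophage-like cells.

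In fibroblast-like cells all 9 genes were measured, and 3 were at least 1.5-fold higher in PTH, where 9.88% of 7701 genes were. Tgfbr2 stood at 352 and 835 CPM, a ratio of 2.37 (2.13 to 2.64), and Tgfbr3 at 80.8 and 146 CPM, a ratio of 1.81 (1.44 to 2.29). Tgfbi stood at 75.5 and 143 CPM, a ratio of 1.89 (1.498 to 2.42), opposite to its direction in chondrocyte-like cells. On the lower side were 2 genes, where 7.15% of genes were. Tgfb3 stood at 125 and 67.1 CPM, a ratio of 0.536 (0.431 to 0.668), and Ltbp2 at 68.4 and 9.64 CPM, a ratio of 0.141 (0.0892 to 0.217). Beside this, the markers of the class did not move together. Pi16 (1132 and 2889 CPM), Dpp4 (31.1 and 120), Clec3b (1601 and 2365), Mfap5 (3931 and 4934) and Dpt (362 and 447) were higher in PTH. Cxcl12 (281 and 163 CPM), Col15a1 (163 and 93.5), Lum (2135 and 1857) and Prrx1 (436 and 382) were lower. Pdgfra (204 and 226 CPM), Col14a1 (1919 and 1940) and Dcn (5555 and 5972) differed little. Red cell markers summed to 18657 and 4398 CPM (2 of 7 genes at 0 in each), chondrocyte markers to 1411 and 394 CPM (0 of 16 at 0 in each), and T or NK markers to 118 and 1.61 CPM (5 and 8 of 9 at 0). The part of these differences in the ratios was not tested.

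In endothelial-like cells 7 genes were measured for PTH, and 1 was higher, where 8.08% of 7627 genes were, and 1 lower, where 3.49% were. Tgfbr1 stood at 17.2 and 32.3 CPM, a ratio of 1.88 (1.18 to 3.11), and Tgfbi at 122 and 52.4 CPM, a ratio of 0.428 (0.337 to 0.541). For YKL 5 genes were measured, of which 0 were higher, where 12.3% of 5299 genes were, and 1 was lower, where 6.44% were. That gene was again Tgfbi, at 122 and 75.5 CPM, a ratio of 0.616 (0.426 to 0.874). Neutrophil markers summed to 3251 CPM in control and 36.4 CPM in PTH endothelial-like cells, and 11.3 CPM in YKL, with 2, 4 and 7 of 11 genes at 0. Red cell markers summed to 69538, 10607 and 23038 CPM in control, PTH and YKL, with 1, 1 and 2 of 7 genes at 0. Their part in the Tgfbi ratios was not tested.

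In macrophage-like cells 4 genes were measured, of which 2 were higher in PTH, where 14.3% of 3552 genes were, and 0 lower, where 7.57% were. Tgfbi stood at 233 and 422 CPM, a ratio of 1.81 (1.503 to 2.19), and Tgfbr2 at 48.8 and 86.0 CPM, a ratio of 1.76 (1.15 to 2.69). The clusters of the class had different Tgfbi levels in control, from 94.5 CPM in a C1q-positive cluster of 58 cells to 562 CPM in a cluster of 27 cells. In PTH these clusters had 452 CPM, from 15 cells, and 445 CPM. The other C1q-positive clusters had 339 CPM in control and 458 CPM in PTH, and 410 CPM (5 cells) and 321 CPM (16 cells), so the direction was not the same in all clusters. Neutrophil markers summed to 2795 CPM in control and 80.1 CPM in PTH macrophage-like cells (0 and 3 of 11 genes at 0), and red cell markers to 45306 and 23222 CPM (1 and 2 of 7 at 0). Chondrocyte markers summed to 1824 and 422 CPM (0 and 2 of 16 at 0) and endothelial markers to 36.4 and 240.4 CPM (1 and 0 of 11 at 0). Their part in the ratios was not tested.

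In osteoblast-like cells 7 genes were measured, of which 2 were higher in PTH, where 10% of 4009 genes were, and 1 lower, where 11.5% were. Tgfb1 stood at 66.7 and 173 CPM, a ratio of 2.59 (1.87 to 3.65), Tgfb2 at 143 and 243 CPM, a ratio of 1.70 (1.34 to 2.17), and Tgfbi at 152 and 90.5 CPM, a ratio of 0.595 (0.439 to 0.803). Different clusters held most of these cells, 55 of 76 in control lying in the cluster with high Col2a1 and 42 of 51 in PTH in the other. Chondrocyte markers summed to 15913 and 9177 CPM (1 and 0 of 16 at 0), and their part in the ratios was not tested. Within that other cluster, of 21 control and 42 PTH cells, Tgfb1 stood at 88.4 and 187 CPM, Tgfb2 at 157 and 282 CPM, and Tgfbi at 88.4 and 99.5 CPM.

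The other genes of the pathway were followed in chondrocyte-like cells with 6 lists of 70 genes. In PTH against control, 64 were measured, of which 9 were higher, where 5.72% of all genes were, and 2 lower, where 3.18% were. In YKL against control, 63 were measured, of which 14 were higher, where 10.3% of all genes were, and 12 lower, where 10.2% were. In YKL against PTH, 4 of 64 were higher, where 7.37% were, and 16 lower, where 8.52% were. The lists were chosen with earlier results of these data known and support no direction by themselves. Their ratios are over all chondrocyte-like cells, whose state shares differed between libraries, and were not taken within states.

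**Figure D5:**
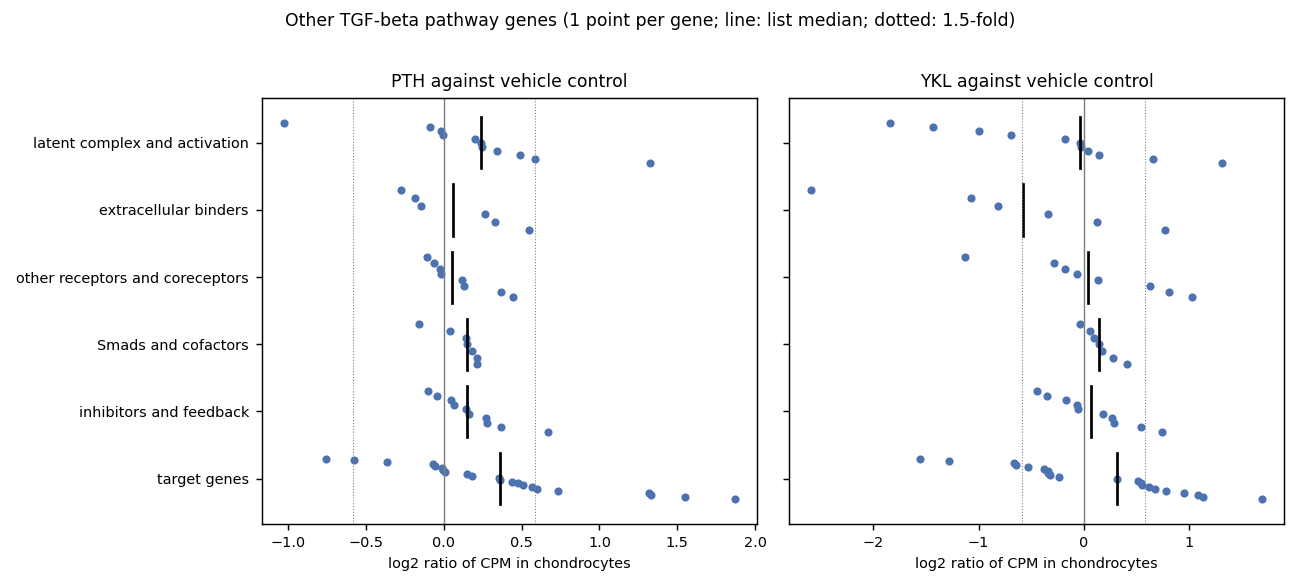
Log2 ratio of CPM in chondrocyte-like cells for the measured genes of the 6 pathway lists, in PTH and YKL against control, with 1 point per gene, a bar at each list's median and dotted lines at 1.5-fold. The median of the target list is 0.36 in PTH and 0.32 in YKL, and that of the extracellular binders is 0.06 and -0.58.

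Of 22 measured genes known as TGF-beta targets, 6 were higher in PTH (5.72% of all genes) and 1 lower (3.18%), with a median log2 ratio of 0.36 where the median of all genes was 0.00. Prg4, the lubricating proteoglycan of joint surfaces, had a PTH ratio of 3.65, the oxidase gene Nox4 one of 2.93 and Cilp, an intermediate layer protein of cartilage, one of 2.52. In YKL 7 of 21 measured targets were higher (10.3% of all genes) and 4 lower (10.2%), with a median of 0.32 where that of all genes was -0.02. Timp3, an inhibitor of metalloproteinases, stood at 96.2, 160 and 311 CPM in control, PTH and YKL, a YKL ratio of 3.23. The matrix genes Col3a1 and Postn, also targets, had YKL ratios of 0.412 and 0.340.

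Genes that hold or release latent ligand were lower in YKL for 4 of 11 measured (10.2% of all genes) and higher for 2 (10.3%), with a median log2 ratio of -0.04. Fbn1, the fibrillin to which latent complexes bind, stood at 45.7, 45.0 and 12.7 CPM in control, PTH and YKL, a YKL ratio of 0.278. Ltbp4, another latent binding protein gene, stood at 77.7, 38.2 and 28.8 CPM, with ratios of 0.491 and 0.371. The gelatinase gene Mmp2 had a YKL ratio of 0.502. In PTH, 2 of these 11 genes were higher (5.72% of all genes) and 1 lower (3.18%), with a median of 0.24. The integrin gene Itgb3 had a PTH ratio of 2.51 and Thbs1, whose product can activate latent ligand, one of 1.503.

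Of 6 measured extracellular binders, 3 were lower (10.2% of all genes) and 1 higher (10.3%) in YKL, with a median log2 ratio of -0.58, and 0 of 6 passed the fold in PTH, with a median of 0.06. Aspn, a small leucine-rich proteoglycan that binds TGF-beta, stood at 214, 313 and 35.5 CPM in control, PTH and YKL, a YKL ratio of 0.166. Bgn, the related biglycan gene, had a YKL ratio of 0.474 and Fmod, the fibromodulin gene, one of 0.569. Among other receptors and coreceptors, 3 of 8 were higher (10.3% of all genes) and 1 lower (10.2%) in YKL, with a median of 0.04, and 0 in either direction in PTH, with a median of 0.05. Bambi, a pseudoreceptor that blocks signalling, stood at 183, 199.98 and 374 CPM, a YKL ratio of 2.05. Eng, the coreceptor endoglin, had a YKL ratio of 0.457.

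None of the 7 measured Smads and cofactors passed the fold in either treated library against control, with medians of 0.15 in PTH and 0.14 in YKL. Of 10 inhibitors and feedback genes, 1 was higher in each comparison with control (5.72% of all genes in PTH and 10.3% in YKL), with medians of 0.15 and 0.06. In YKL this was Smad7, the inhibitory Smad, at 44.2, 53.4 and 74.2 CPM in control, PTH and YKL, a ratio of 1.68 (1.53 to 1.84). In PTH it was Smad6, with a ratio of 1.59 (1.22 to 2.06).

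Across 17 sums of a class and a library with at least 50 cells, the genes most like each member were found by Pearson correlation of log2(CPM + 10) among 5958 genes. The sums share libraries and classes, so the values are descriptions. For Ltbp1 the nearest genes were the elastic fibre genes Loxl1 (r = 0.97) and Mfap5 (0.95), with Lrrc17 (0.95). For Tgfb3 they were Hoxa10 (0.97), Col3a1 (0.96) and Sdc2 (0.96), and for Tgfb2 Htra1 (0.96), Emp2 (0.95) and Smtn (0.93). Ly6a was among the nearest genes of both Tgfbr3 (0.98) and Tgfbr2 (0.91). Tgfbr3 was also near Lysmd2 (0.94) and Lamb1 (0.94), and Tgfbr2 near Cfb (0.92) and Cast (0.91). Ltbp2 was nearest to Cpxm1 (0.91), Cdh11 (0.89) and Tnc (0.87), and Tgfbr1 to Bri3 (0.91), Tmem50a (0.90) and Lpl (0.90). The nearest genes of Tgfb1 were less like it, with Commd7 (0.81), Tcof1 (0.79) and Yeats4 (0.78), as were those of Tgfbi, with Hexa (0.82), Timm10b (0.81) and Dok1 (0.78). Among the members, Tgfbr2 and Tgfbr3 had an r of 0.89, Tgfb3 and Ltbp1 one of 0.80, and Tgfb1 and Tgfb3 one of -0.54.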

How the data were processed

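The deposited values are unnormalized UMI counts, a value per gene and cell barcode. Cell Ranger 4.0.0 wrote them, per the file headers, and mm10 and Seurat are named in the submitters' processing notes. How strand was used in counting was not given in the sources used here. The libraries held 55250651 (control), 33981167 (PTH) and 19424073 (YKL) UMIs in 8021, 5286 and 1500 barcodes. Kept cells had 500 or more detected genes and no more than 10% mitochondrial UMIs (Python 3.11.15, scanpy 1.11.5). Scrublet marked 57 of 3436, 6 of 2438 and 9 of 687 barcodes at thresholds of 0.301, 0.381 and 0.259, which were removed. These shares are low, so most doublets are taken to remain. Cells were scaled to 10000 UMIs and clustered (2000 variable genes without the members, 30 components, 15 neighbours, Leiden resolution 0.8), and clusters were named from markers of 18 classes. UMIs were summed per class and library. CPM carry exact Poisson, shares exact Clopper-Pearson and ratios exact conditional binomial 95% intervals (scipy 1.17.1), and a count of 0 has a floor of 3 counts. Code was tested on simulated data. All 9 members were named, with the 3 nearest genes of each and up to 4 genes per list and comparison whose interval lay farthest from 1. A gene of the target list that this rule names is counted in the list but not reported here. State cuts were chosen after cluster levels were seen, and members and lists with earlier results of these data known. There were 15 alternatives, which changed cell filters, clustering, weighting, scaling, thinning, the UMI minimum or the fold. Promoter sequences are from RefSeq and gene positions from the GENCODE annotation of GRCm38.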

Additional observations from a re-analysis of the deposited data

Results flagged for a closer look

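In PTH against control, 3 genes stood on opposite sides of 1.5-fold in chondrocyte-like and fibroblast-like cells. With 1 library per group the difference between the classes was not tested. The ratio of Tgfb3 was 1.85 in chondrocyte-like and 0.536 in fibroblast-like cells, 3.45 times apart. In chondrocyte-like cells that ratio was 1.13 with clusters weighted equally and 1.39 from state shares alone. That of Ltbp2 was 1.92 and 0.141, 13.6 times apart, and its chondrocyte-like ratio was 0.831 with a mitochondrial maximum of 20%. That of Tgfbi was 0.294 in chondrocyte-like and 1.89 in fibroblast-like cells, 6.45 times apart.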

How the results depend on the processing

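No paired analysis was possible because each group had 1 library, and for the same reason no library could be left out. Over 15 alternatives, 309 of 395 member ratios in chondrocyte-like cells stayed within their main counting interval, 84 moved outside it without a ratio past 1.5-fold changing direction, and 2 past 1.5-fold changed direction. Both were of Ltbp2, against control 0.831 for PTH with a mitochondrial maximum of 20% and 1.05 for YKL at resolution 1.2. The fold of 2 and a lower UMI minimum leave every ratio as it was. Their ratios are thus counted as within the interval by construction, and the lower minimum could change no count. Of 90 counts of members past the fold, 70 were within 1.5 times their main value. With a fold of 2, PTH against control had 1 higher (3 in the main result), and YKL against control had 0 higher (2) and 2 lower (4). YKL against control also had 2 lower with a minimum of 200 or of 1000 genes, with members among the variable genes, after thinning to 2000 UMIs and with clusters weighted equally, where it had 1 higher. YKL against PTH had 1 higher (0) with a minimum of 200 or of 1000 genes, a mitochondrial maximum of 5% or 20%, marked doublets kept, members among the variable genes, a resolution of 0.4 or 1.2, or equal weights. It had 1 lower (4) after thinning and with equal weights. The causes were not tested. Equal weighting could use 8 clusters for PTH and 4 for each YKL comparison. Depth limits Tgfbr3 and Ltbp2, with 10 to 72 UMIs per library in chondrocyte-like cells.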

Other observations

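Genes for proteins that hold latent TGF-beta at the cell surface were nearly absent from chondrocyte-like cells and present elsewhere in the callus, and they were picked out after their values were seen. Nrros, which presents latent ligand on myeloid cells, stood at 83.3 CPM in control and 91.9 CPM in PTH macrophage-like cells, against 0.081 CPM in control chondrocyte-like cells. It was not confined to myeloid classes, since endothelial-like cells had 43.7, 45.0 and 37.7 CPM in control, PTH and YKL. Lrrc32, which encodes the presenting protein GARP, stood at 79.5, 83.9 and 121 CPM in control, PTH and YKL endothelial-like cells. In pericyte-like cells it was at 57.6 and 105 CPM in the control and PTH libraries, and in fibroblast-like cells at 26.6 and 47.2 CPM. Control chondrocyte-like cells had 1.58 CPM of Lrrc32.

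The inhibitory Smad gene Smad7 was highest in control T or NK-like cells, at 221 CPM from 46 UMIs, among the classes described. In macrophage-like cells it stood at 20.1 CPM in control (21 UMIs) and 84.0 CPM in PTH cells (43 UMIs). In that class 14.3% of 3552 genes were at least 1.5-fold higher in PTH, and the part of its cluster make-up was not tested. The coreceptor gene Eng was mainly endothelial, at 545, 572 and 989 CPM in control, PTH and YKL endothelial-like cells.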
